A study of Mus musculus with 6 samples.

Results

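The cytosolic ribosomal proteins are the protein subunits of the ribosome that translates nuclear-encoded mRNA, and their transcripts were compared between spleens of Rag2/pfp KO mice and spleens of wild-type mice. Probes were taken as members when the platform annotation gave a symbol of the Rpl, Rps or Rplp series, or Rpsa, and when at least 3 of the 6 arrays detected them (detection p-value under 0.05). The symbol rule found 74 probes of 57 genes among 25697 probes on the array, and 62 probes of 52 genes passed the detection filter, out of 12885 probes of 9158 genes that passed it in all. RNA from 3 Rag2/pfp KO spleen samples and 3 wild-type spleen samples was hybridised to Illumina MouseRef-8 v2 arrays. On these arrays beads carry gene-specific probes and the brightness of a probe follows the amount of labelled cRNA. The labels give the genotype and the tissue and leave out strain, age and the form of the mutant alleles. Rag2 works with Rag1 in rearranging immunoglobulin and T cell receptor genes, and mice without it are known to lack mature B and T cells. The symbol pfp was used for Prf1, whose product perforin is the pore-forming protein of cytotoxic cells.

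The labels also do not say whether the spleens of a group came from separate animals, so p-values here reflect the spread among these samples only, and some of it may be technical. Signal of the Rag2 probe stayed undetected on all 6 arrays. The brighter Prf1 probe read 11.04, 12.07 and 11.45 log2 units in KO replicates 1, 2 and 3 against 10.95, 11.05 and 11.58 in the wild-type replicates. These probes did not separate the groups. Where they lie relative to the altered parts of the genes is not given in the sources used here. KO replicate 2 stood apart in sex-linked transcripts. Its Eif2s3y probe read 8.73, against 6.92 and 6.83 in KO replicates 1 and 3 and 6.80 to 6.996 in wild type, and its 2 Xist probes were not detected there but were detected on the other 5 arrays. Without KO replicate 2 the median difference of the ribosomal protein probes was -0.08, the same to 2 decimals as with it, and no member was called. The arrays detected 12084 to 12595 probes in KO spleens and 12545 to 13149 in wild-type spleens.

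Each eukaryotic ribosome joins a small subunit, which decodes the mRNA and is built with the Rps proteins, to a large subunit, which forms peptide bonds and is built with the Rpl proteins. The acidic proteins Rplp0, Rplp1 and Rplp2 form the stalk of the large subunit, which recruits the GTPase factors of translation. Ribosomal protein mRNAs are among the most abundant of most cells, and many begin with a C followed by an unbroken run of pyrimidines, the terminal oligopyrimidine tract through which mTORC1 signalling is known to control their translation. Lymphocytes are known to raise ribosome production when they leave the resting state. Ribosomal protein genes also have many processed pseudogenes, and probe sequences were not used here, so signal from a near-identical copy cannot be separated from that of the named gene.

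The start sites of 5 members from the ends of the ranking by difference are shown first, because the tract is the sequence feature these mRNAs are best known for. All but Rps13 have a tract, so they do not represent the ends of the ranking. Rps3, Rps9, Rpl12, Rps24, Rpl24 and Rplp0, also at its ends, have no tract at an annotated start. Rpl38 is at an end by its dimmer probe only. Sequences are from RefSeq on GRCm38.p6, which held a window for 44 of the 52 genes. The genes Rpl21, Rpl23a, Rpl29, Rpl3, Rpl30, Rplp1, Rps14 and Rps20 were not matched. Each line has 20 bases before the annotated start and 10 bases from it onward, 5′ to 3′ on the gene's strand, with the tract in capitals. The windows of Rps6 (chr4:86857358-86857387), Rps27 (chr3:90213639-90213668) and Rps15a (chr7:118116138-118116167) are on the minus strand, that of Rpl38 (chr11:114668560-114668589) is on the plus strand, and that of Rps13 (chr7:116334181-116334210), on the minus strand, has no tract at its annotated start.
Rps6: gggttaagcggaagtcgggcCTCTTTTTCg
Rps27: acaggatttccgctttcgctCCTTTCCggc
Rps15a: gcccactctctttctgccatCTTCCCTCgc
Rpl38: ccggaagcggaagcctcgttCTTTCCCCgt
Rps13: cgcgcgagagcaaacgtcggtgagtggcgt

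A C followed by at least 4 pyrimidines stood exactly at an annotated start in 9 of the 44 matched genes (20.5%), against 3.01% of all genes in the table. An annotated start that is off by a few bases hides a tract, so the share counts these letters at these positions and nothing more. Over promoter windows of 250 bases before to 50 bases after the start, CCGGAAG was found on either strand in 34% of 53 member windows against 8.86% of 32851 windows in all. AAGATGG was found on either strand in 20.8% of member windows against 6.34% of all windows. The first string is known as an Ets family core and the second as a YY1 core. By the brightest probe of each gene, the 9 genes with a tract had a median difference of -0.18 log2 units and the 35 without had one of -0.13, with 8 of 9 and 25 of 35 below 0. Among the genes with a tract, Rps6 had the lowest difference and Rps15a, the one above 0, the highest.

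No ribosomal protein transcript passed the test between KO and wild-type spleens. In limma's moderated test with Benjamini-Hochberg adjustment over all 12885 probes, 0 of 62 member probes were called at an adjusted p under 0.05 in either direction. Over all probes 130 were called higher in KO (1.01%) and 337 lower in KO (2.62%). At an unadjusted p under 0.05, 3 members were higher (4.84%, against 8.75% of all probes) and 8 were lower (12.9%, against 9.2% of all probes). The 3 KO arrays lay wholly above the 3 wild-type arrays for 4 members (6.45%, against 12.4% of all probes) and wholly below them for 10 members (16.1%, against 12% of all probes).

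The differences were small in both directions. KO minus wild-type differences ran from -0.53 to 0.48 log2 units, and 34 of the 62 lay within 0.25 of 0. The 95% confidence interval stayed inside 1 log2 unit on either side of 0 for 59 members and inside 0.5 for 23. A change of 1 log2 unit, which is 2-fold in signal, was therefore outside the interval of those 59 members. The values were not background corrected, and some members lay near the array median of 7.24. The KO means were 7.31 for Rpl6, 7.37 for the dim Rps19 probe and 7.54 for Rpl7a. For such dim probes the interval bounds the change in signal and not the change in RNA.

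Members lay below 0 more often than probes did in general. The difference was negative for 42 of 62 member probes (67.7%) and positive for 19, with a median of -0.08 and quartiles of -0.28 and 0.06. Measured against the wild-type mean, the members' median was -0.12, -0.05 and -0.06 in KO replicates 1, 2 and 3. It was -0.03, -0.02 and 0.04 in the wild-type replicates. The member probes share the same arrays, so counts of probes are not counts of independent samples. Over all tested probes 46.4% were negative and the median was 0.02. Those probes were dimmer in general, since 9500 of 12885 had a mean under 10 log2 units, against 11 of 62 members. Shares by brightness are given below. By the brightest probe of each gene, 38 of 52 genes were negative (73.1%) with a median of -0.12, against 46.3% of all genes. This shift depended on how arrays were scaled. With no normalization between arrays the median was -0.17 for members and -0.20 for all probes, and with median centring it was -0.10 for members and -0.13 for all probes, so the members lay 0.03 above all probes there, against 0.10 below them in the reported fit. These settings differ only by a constant per array and give that value once. With cyclic loess the members lay 0.15 below all probes, and with neqc background correction 0.11 below.

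**Figure D1:**
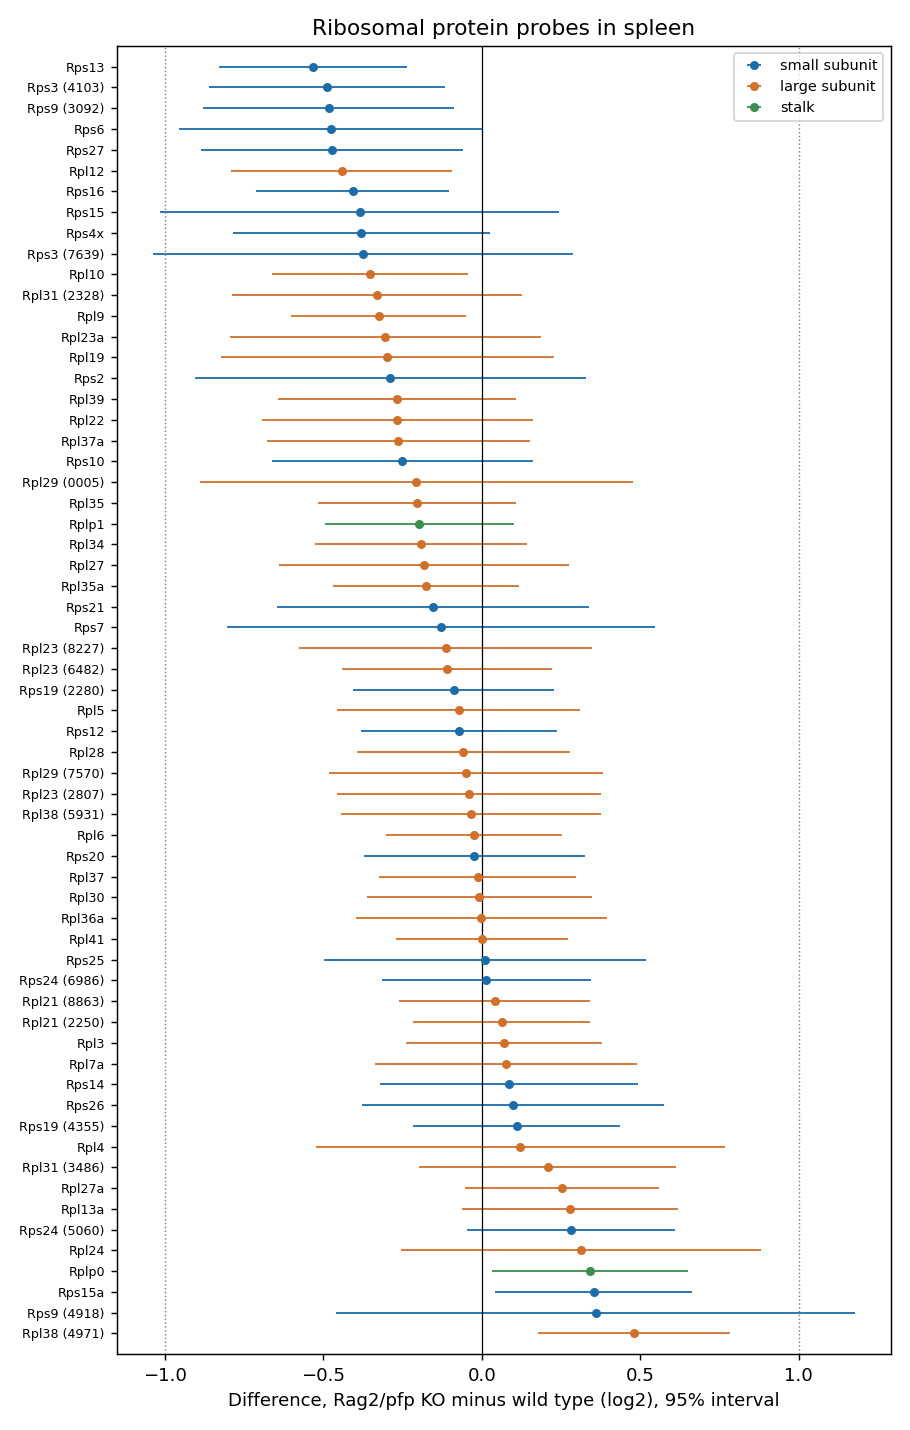
Difference in log2 signal, Rag2/pfp KO minus wild type, for each of the 62 member probes, ordered from lowest at the top, with 95% intervals from limma and 3 arrays per group. Genes with several probes carry the last digits of the probe name, and the dotted lines mark 1 log2 unit on either side of 0, inside which 59 intervals lie.

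The small subunit supplied the most negative differences. Of its 24 probes, 16 were below 0 with a median of -0.14, 5 had all KO arrays below all wild-type arrays and 1 had them above. Rps13, a core protein of the small subunit, had the lowest value of all members. It read 13.62, 13.64 and 13.50 in KO spleens against 14.24, 14.11 and 14.004 in wild-type spleens, a difference of -0.53 ± 0.13 (SE, n = 3 per group; limma adjusted p = 0.0707). Its groups did not overlap, with a gap wider than the range of either.

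Rps3, which sits at the mRNA entry channel and also has known roles outside the ribosome, followed. Its brighter probe read 13.59, 13.38 and 13.20 in KO spleens against 14.08, 13.79 and 13.77 in wild-type spleens, a difference of -0.49 ± 0.16 (SE; limma adjusted p = 0.158). The KO arrays were all lower. Its dimmer probe differed by -0.38 ± 0.28 and its groups overlapped, with 10.55 in KO replicate 3 as the lowest value.

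Rps27, a zinc-binding protein of the small subunit, read 13.34, 13.82 and 13.82 in KO spleens against 13.95, 14.19 and 14.25 in wild-type spleens. The difference was -0.47 ± 0.18 (SE; limma adjusted p = 0.213), and KO replicate 1 was the lowest of the 6. Replicate 1 was also the lowest of the wild-type arrays.

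Rps6, the substrate of the S6 kinases, read 13.45, 12.68 and 13.08 in KO spleens against 13.62, 13.58 and 13.43 in wild-type spleens, a difference of -0.48 ± 0.20 (SE; limma adjusted p = 0.283). The groups overlapped, since KO replicate 1 lay just above wild-type replicate 3, and the KO values spread over a wider range than the wild-type values. Without KO replicate 2 the difference was -0.28. Rps4x, the X-linked gene of a small subunit protein, read 14.63, 14.16 and 14.29 in KO spleens against 14.95, 14.66 and 14.60 in wild-type spleens. The difference was -0.38 ± 0.17 (SE; limma adjusted p = 0.31) and KO replicate 1 lay above wild-type replicate 3.

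Rps15a was the small subunit member whose KO arrays all lay above the wild-type arrays. It read 9.44, 9.39 and 9.36 in KO spleens against 8.88, 9.05 and 9.20 in wild-type spleens, a difference of 0.35 ± 0.13 (SE; limma adjusted p = 0.219). The KO values were closer together than the wild-type values. The difference was 0.0056 with no normalization between arrays and 0.079 with median centring.

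Large subunit probes lay nearer to 0. Of 36 probes, 25 were below 0 and 10 above with a median of -0.05, and the groups did not overlap in 4 with KO lower and in 2 with KO higher. Rpl12, part of the stalk base, read 13.64, 13.28 and 13.70 in KO spleens against 13.97, 13.97 and 14.01 in wild-type spleens. The difference was -0.44 ± 0.15 (SE; limma adjusted p = 0.171), with all KO arrays lower and wild-type values nearly equal. Rpl10, which joins the large subunit late in its assembly, read 14.11, 14.004 and 13.83 in KO spleens against 14.36, 14.25 and 14.40 in wild-type spleens, a difference of -0.35 ± 0.13 (SE; limma adjusted p = 0.214). Its groups did not overlap either.

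Rpl22 is known in mice to be needed for the development of alpha-beta T cells. It read 10.84, 11.34 and 11.38 in KO spleens against 11.29, 11.51 and 11.57 in wild-type spleens, a difference of -0.27 ± 0.18 (SE; limma adjusted p = 0.536). The groups overlapped, and replicate 1 was the lowest array of each. The difference was -0.09 without KO replicate 1 and -0.50 with no normalization between arrays. Its paralogue Rpl22l1 did not pass the detection filter. Rpl24, a protein of the intersubunit bridges, read 9.11, 8.23 and 8.36 in KO spleens against 8.37, 8.07 and 8.32 in wild-type spleens, and its difference of 0.31 ± 0.24 (SE; limma adjusted p = 0.59) rested on KO replicate 1. Without that array the difference was 0.04.

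Rpl41, which encodes the smallest ribosomal protein, was chosen after its values were seen. It read 15.63, 15.68 and 15.73 in KO spleens and 15.63, 15.73 and 15.68 in wild-type spleens. The values match because quantile normalization gives probes of the same rank the same number, and the difference was 0 with a 95% interval of -0.27 to 0.27.

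The stalk proteins split. Rplp0, the scaffold of the stalk, read 9.83, 9.63 and 9.93 in KO spleens against 9.39, 9.47 and 9.49 in wild-type spleens, a difference of 0.34 ± 0.13 (SE; limma adjusted p = 0.229). Rplp1, which binds it, read 15.40, 15.58 and 15.40 in KO spleens against 15.77, 15.63 and 15.59 in wild-type spleens, a difference of -0.20 ± 0.13 (SE; limma adjusted p = 0.5). Neither pair of groups overlapped, in opposite directions. The Rplp0 difference was 0.0028 with no normalization between arrays and 0.076 with median centring, where the medians of all probes were -0.20 and -0.13. The single Rplp2 probe was not detected on any array.

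**Figure D2:**
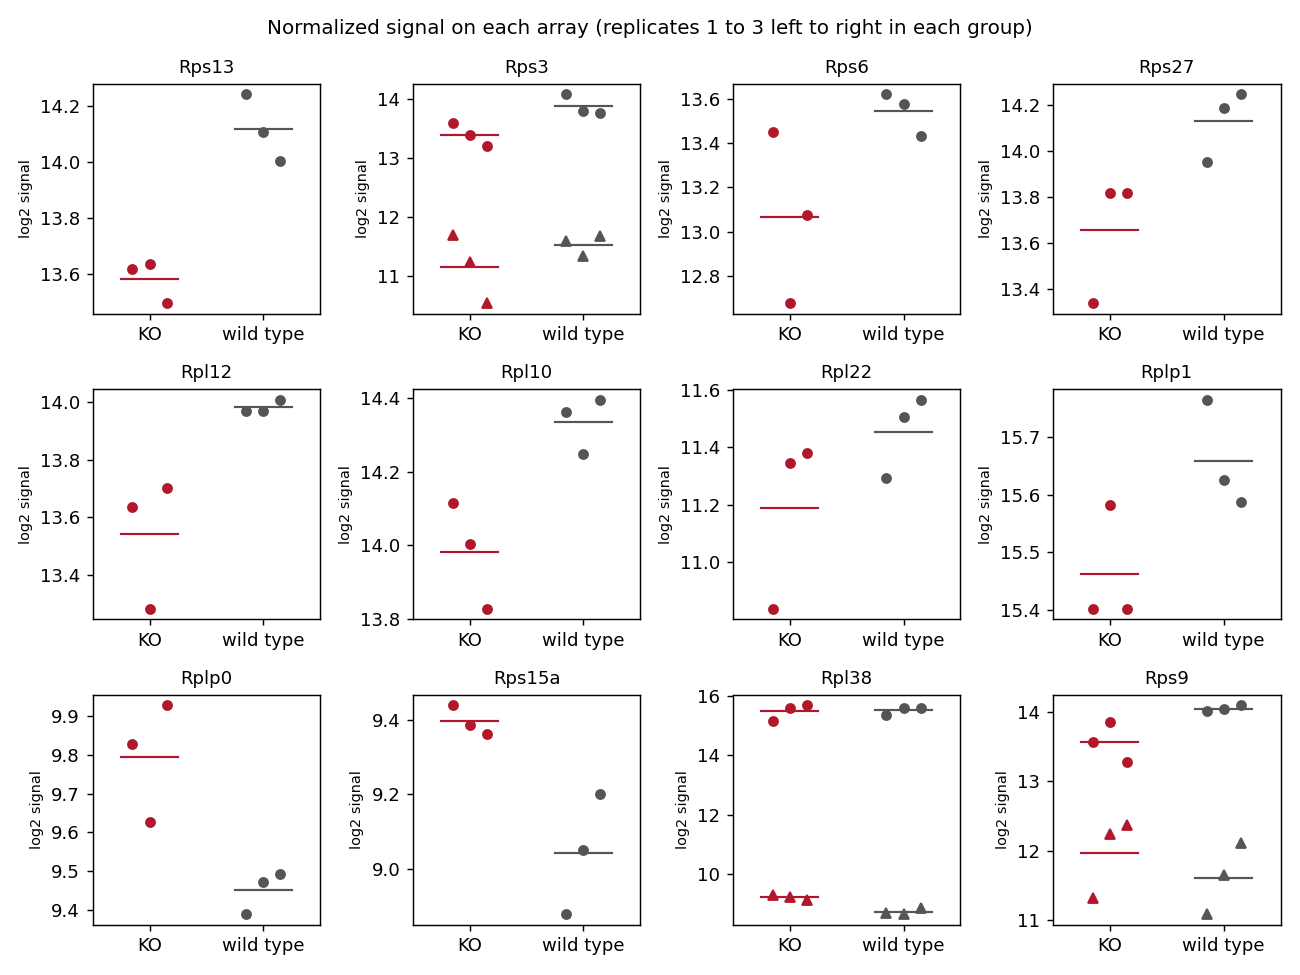
Log2 normalized signal of 12 genes on each array, Rag2/pfp KO in red on the left and wild type in grey on the right, with horizontal lines at the group means and each panel on its own scale. Triangles are the second, dimmer probe of Rps3, Rpl38 and Rps9. The KO arrays of Rps13 lie wholly below the wild-type arrays and those of Rps15a wholly above them.

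Probes of 1 gene did not always point the same way. Of 9 genes with several tested probes, 4 had probes with differences of opposite sign, and in 3 the probes differed by over 0.5 log2 units. For Rps9, a small subunit protein near the mRNA entry channel, the brighter probe read 13.56, 13.85 and 13.27 in KO spleens against 14.004, 14.03 and 14.09 in wild-type spleens, a difference of -0.48 ± 0.17 (SE; limma adjusted p = 0.186). The dimmer probe read 11.32, 12.24 and 12.37 in KO spleens against 11.09, 11.64 and 12.11 in wild-type spleens, a difference of 0.36 ± 0.35 (SE; limma adjusted p = 0.68). The brighter probe separated the groups and the dimmer did not. Leaving out single arrays moved the dimmer probe's difference between 0.10 (without wild-type replicate 1) and 0.69 (without KO replicate 1).

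Rpl38, known in mice for its part in the translation of Hox mRNAs, showed a similar split. Its brighter probe read 15.15, 15.59 and 15.68 in KO spleens against 15.36, 15.58 and 15.58 in wild-type spleens, a difference of -0.03 ± 0.17 whose sign changed with median centring (0.0026). Its dimmer probe read 9.31, 9.23 and 9.13 in KO spleens against 8.70, 8.66 and 8.89 in wild-type spleens, a difference of 0.48 ± 0.13 (SE; limma adjusted p = 0.0993). That was the most positive value of all members, and its groups did not overlap. It was 0.13 with no normalization between arrays and 0.21 with median centring.

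For Rpl31, a protein at the exit of the peptide tunnel, the brighter probe read 13.98, 13.77 and 13.29 in KO spleens against 14.13, 13.95 and 13.94 in wild-type spleens, a difference of -0.33 ± 0.19. The dimmer probe read 11.62, 11.09 and 11.44 in KO spleens against 11.35, 11.09 and 11.10 in wild-type spleens, a difference of 0.21 ± 0.17 that was -0.02 with no normalization between arrays. Rps24, whose human gene is mutated in some Diamond-Blackfan anaemia, had a bright probe with a difference of 0.01. Its dim probe differed by 0.28 ± 0.14 (SE; limma adjusted p = 0.356), and by -0.07 with no normalization between arrays. Which transcript forms or gene copies each probe reads was not tested.

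In the reported fit the sign of a member's difference varied with the brightness of its probe. The bins of mean signal were chosen after the values were seen. With no normalization between arrays 55 of 62 members lay below 0, and the bins were not run in that setting. Of 11 member probes with a mean under 10 log2 units, 9 were above 0 with a median of 0.11, and of 11 with a mean of 10 to 12, 5 were above 0 with a median of -0.01. Of 19 members with a mean of 12 to 14, 18 were below 0 with a median of -0.30, and of 21 with a mean over 14, 16 were below 0 with a median of -0.07. All tested probes in the same bins, members included, had medians of 0.03, 0.00, -0.01 and -0.03. The shares of these probes below 0 were 45%, 50%, 51.4% and 58.4%. The 4 members whose KO arrays lay wholly above wild type all had means under 12. The brightest member on any array reached 62558 raw units, against 65296 for the brightest probe of that array, so compression of bright signals near the upper end of the scale was not tested.

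**Figure D3:**
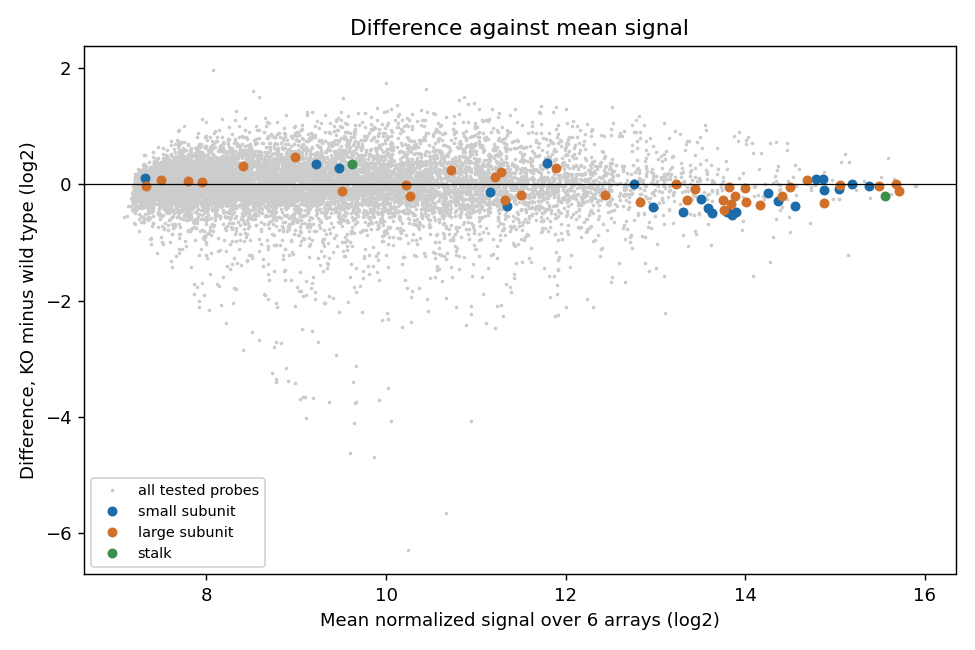
Difference in log2 signal, Rag2/pfp KO minus wild type, against mean log2 signal over 6 arrays for all 12885 tested probes and the 62 members. Of the 19 members with a mean of 12 to 14, 18 lie below 0.

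The 12 probes that did not pass the filter included all probes of Rpl14, Rpl17, Rplp2, Rps23 and Rpsa. The Rpsa protein is a small subunit component also known as the laminin receptor. Of these 12 probes, 11 were detected on no array, and a probe of Rpl27a was detected on KO replicate 1 alone. The other undetected probes belonged to Rpl23, Rpl37, Rpl4 and Rplp0, each of which had another probe that passed. An undetected probe therefore does not show that the transcript of its gene was absent. Among the 62 that passed, 59 were detected on all 6 arrays. Rps27a, the ubiquitin fusion gene, was not among the annotated symbols.

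Members spread more between KO arrays than between wild-type arrays, as probes did in general. The median SD of a member was 0.21 log2 units in KO spleens and 0.13 in wild-type spleens, against 0.27 and 0.13 over all tested probes. The SD was greater in KO spleens for 83.9% of members and 83.2% of all probes. As a share of the raw signal of an array, the members made up 4.96%, 5.12% and 5.04% in KO spleens and 5.02%, 5.08% and 5.35% in wild-type spleens. These shares overlapped between the groups.

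The spread was shared between members and between groups. Each member's deviation from its own group mean was set against the other group, array by array, over the 62 probes. Deviations in KO replicate 1 and wild-type replicate 1 had r = 0.82, and 51 members had the same sign. KO replicate 2 matched wild-type replicate 3 (r = 0.69, 45 of the same sign), and KO replicate 3 matched wild-type replicate 2 (r = 0.76, 49 of the same sign). Over all tested probes the same pairs had r of 0.50, 0.53 and 0.56. The other 6 pairs ran from -0.57 to 0.01 over members. The 3 deviations of a probe within a group sum to 0, so the 9 values are not independent, and the probes of an array share its RNA and hybridisation.

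Replicate 1 stood out in both groups for several members, which were chosen after their values were seen. Rps25, the small subunit protein known for its part in IRES-driven translation, read 12.33, 12.99 and 12.99 in KO spleens against 12.62, 13.00 and 12.66 in wild-type spleens. Rps21 read 13.78, 14.30 and 14.46 in KO spleens against 14.09, 14.46 and 14.45 in wild-type spleens. Both were lowest in replicate 1 of each group, but for Rps25 KO replicate 2 lay above its group mean and wild-type replicate 3 below its own. Rps7, which is known to bind Mdm2, read 11.63, 10.57 and 11.09 in KO spleens against 11.54, 11.22 and 10.91 in wild-type spleens. It was highest in replicate 1 of each group. The labels give both replicates 1 the same sample code and the other arrays codes that differ, and they do not say what a code stands for. The median raw signal was highest in replicate 1 of both groups, at 158 against 142 and 144 in KO spleens and at 164 against 151 and 151 in wild-type spleens. The part of these values in the shared pattern was not tested.

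**Figure D4:**
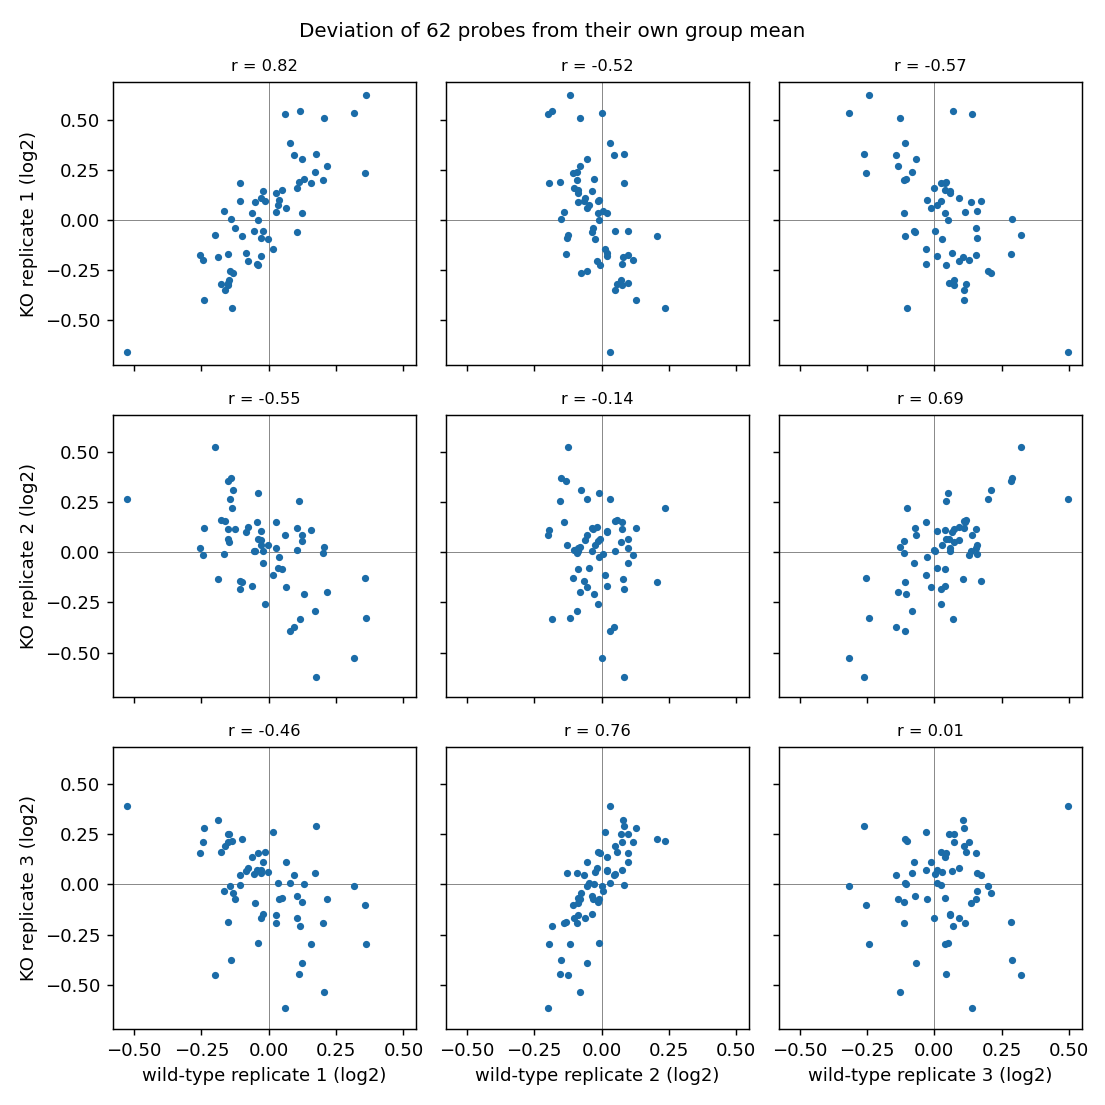
Deviation of each of the 62 member probes from its own group mean in log2 units, with Rag2/pfp KO replicates as rows on the vertical axes and wild-type replicates as columns on the horizontal axes. The panels with r of 0.82, 0.76 and 0.69 pair KO replicates 1, 3 and 2 with wild-type replicates 1, 2 and 3.

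The genes of protein synthesis around the ribosome were then set beside its proteins, by the brightest probe of each gene and without a test of the lists. Among translation initiation and elongation factors and related genes 0 of 25 tested genes were called in either direction. Their median difference was -0.02, and the differences ran from -0.67 to 0.42. Eef1g, a subunit of the elongation factor complex that recharges Eef1a, differed by -0.05 ± 0.13, and Eif3f, a subunit of the initiation factor that binds the small subunit, by -0.20 ± 0.14 (SE). Among ribosome biogenesis genes 0 of 28 were called, with 17 above 0 and a median of 0.06. That median was -0.17 with no normalization between arrays and -0.09 with median centring. Both genes named from this list lay below 0, with -0.26 ± 0.14 for Npm1, a nucleolar chaperone, and -0.27 ± 0.24 for Fbl, the methyltransferase that modifies ribosomal RNA. Of 14 genes of the S6 kinase and mTORC1 pathway 0 were called, with a median of 0.01. Their differences ran from -0.56 to 0.47, and leaving out single arrays gave 0 to 1 calls. Tsc2, which restrains mTORC1, differed by 0.04 ± 0.16. The median of this pathway was -0.25 with no normalization between arrays and -0.18 with median centring, where the medians of all probes were -0.20 and -0.13. Of 6 relatives of ribosomal proteins 0 were called, with 4 above 0 and a median of 0.11 that was -0.04 without KO replicate 1 and -0.17 with no normalization between arrays. Rps27l, a paralogue of Rps27, differed by 0.18 ± 0.22, and Fau, which encodes a ubiquitin-like protein fused to the small subunit protein of the eS30 family, by -0.22 ± 0.19.

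Proteins of the mitochondrial ribosome, which translates the mitochondrial genome and has a separate set of nuclear-encoded subunits, lay on the other side of 0. Of 69 tested genes, 56 were above 0 and 13 below, with a median of 0.15, against 53.7% above 0 and a median near 0 over all genes. The KO arrays lay wholly above the wild-type arrays for 17 of 69 and wholly below for none, against 13.2% and 12.3% of all genes, and 0 were called, with a lowest limma adjusted p of 0.0665. Measured against the wild-type mean, the list's median was 0.32, 0.15 and 0.10 in KO replicates 1, 2 and 3, and from -0.06 to 0.06 in wild-type spleens. With no normalization between arrays the list's median was -0.12, and with median centring it was -0.04. Both values are below 0 and above the medians of all probes in those settings, -0.20 and -0.13.

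Markers of several blood cell types differed more than any ribosomal protein, and those of others did not pass the test. By the brightest probe per gene, 1.18% of all genes were called higher and 2.66% lower. All 9 tested B cell markers and 9 of 11 T cell markers were called lower in KO, with medians of -4.08 and -1.90. A marker detected on no KO array has only a bound there, and with such markers set to the lowest detected signal of each KO array the medians were -4.08 and -1.86. With neqc background correction the T cell median was -3.70. The summed linear signal of the B cell list was 1708 to 1952 units in KO spleens against 33176 to 36461 in wild-type spleens, and Fcmr, Ms4a1 and Cr2 were detected on no KO array. For the T cell list the sums were 2459 to 4001 units in KO spleens against 18917 to 22086 in wild-type spleens, and Cd28, Trat1, Cd3e and Cd6 were detected on no KO array. The 4 plasma cell markers were all called lower. In neutrophil markers 5 of 10 neutrophil markers were called lower with sums of 39886 to 101500 units in KO spleens against 175701 to 191929 in wild-type spleens. Of 7 erythroid markers 4 were called higher in KO with a median of 1.03, and sums were 103820 to 135527 units in KO spleens against 71701 to 76257 in wild-type spleens. Leaving out single arrays gave 1 to 7 neutrophil calls, with 1 without wild-type replicate 1 or 2 and 2 without wild-type replicate 3. It gave 0 to 3 erythroid calls, with 0 without wild-type replicate 1 or 2 and 1 without wild-type replicate 3, and an erythroid median of 0.60 without KO replicate 1. Erythroid calls were also 0 with no normalization between arrays and 1 with median centring or cyclic loess. None of 5 natural killer markers and none of 8 macrophage markers was called, with medians of 0.15 and -0.22. The natural killer differences ran from -0.61 to 0.73, with 4 above 0 and 1 below. In 2 of these 5 the KO arrays lay wholly above the wild-type arrays, against 13.2% of all genes. Leaving out single arrays gave 0 to 1 natural killer calls and macrophage medians from -0.34 to 0.16. In cell cycle genes 1 of 9 was called higher, with a median of 0.64, and 0 were called without wild-type replicate 1 or 2. The erythroid medians were 1.57, 0.54 and 0.67 on KO replicates 1, 2 and 3. Whole spleen was measured, so fewer cells of a type and less RNA per cell cannot be told apart, and the part of these cell types in the ribosomal protein values was not tested.

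**Figure D5:**
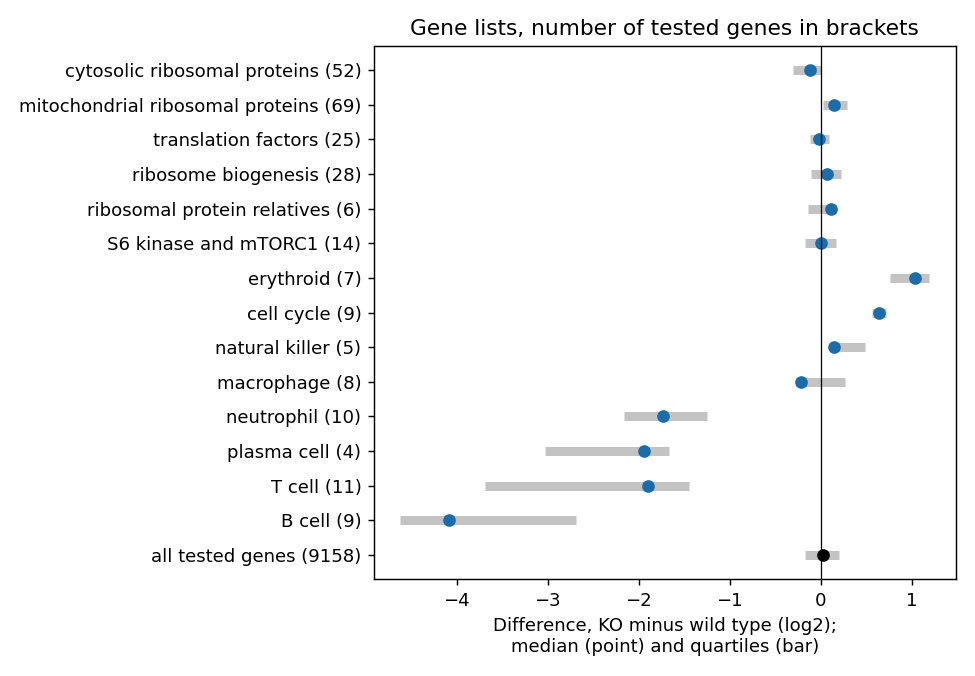
Median (point) and quartiles (bar) of the log2 difference, Rag2/pfp KO minus wild type, over the tested genes of each list, with all 9158 tested genes in the bottom row. Markers detected on no KO array enter at their fitted values. The 52 ribosomal protein genes have a median of -0.12, against -4.08 for the B cell list.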

How the data were processed

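RNA from 6 mouse spleen samples, 3 Rag2/pfp KO and 3 wild type by their titles, was labelled from an oligo(dT) primer and hybridised, per the labels' protocols. The authors deposited linear signal intensity and, beside it, detection p-values for each probe, per the file headers, and a table of log2 values, from GenomeStudio 2011.1 per the submitters' processing notes. The deposited log2 values matched quantile-normalized log2 intensity without background correction to within 5e-07, and were tested as they stood. Quantile normalization removes a shift shared by most probes.

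Probes with a deposited detection p-value under 0.05 on at least 3 of 6 arrays were fitted with lmFit and eBayes in limma 3.58.1 (R 4.3.3), two-sided, with group as the only term and Benjamini-Hochberg adjustment over 12885 probes. Of 25697 probes, 23978 had 1 gene symbol, 0 had several and 1719 were unnamed. All 74 ribosomal protein probes matched RefSeq gene numbers. The fit was also run on simulated data in which probes varied independently. That run does not test the error rate under the deviations that probes shared here.

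Genes named are the 6 most positive and 6 most negative probes, the stalk proteins, Rpsa, Rps6, Rps4x, Rpl10, Rpl22 and Rps27a. Genes whose probes differed by over 0.5 are named too, with up to 2 of the brightest genes per list around the ribosome. No gene of the mitochondrial list is named. Rpl41, Rps25, Rps21 and Rps7 were added after their values were seen. For cell marker lists, counts, sums and the markers detected on no KO array are given. The members and lists were chosen with earlier results of these data known. Alternatives were other scalings, background correction, filters, array weights, a replicate block and leaving out each array. The 3 arrays per group limit the precision.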

Additional observations from a re-analysis of the deposited data

How the results depend on the processing

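No ribosomal protein probe was called higher in KO under any alternative run, and at most 1 was called lower. That was 1 with no normalization between arrays (Rps27, -0.58, limma adjusted p = 0.0463), 1 with no filter on low values (Rps13, -0.53, limma adjusted p = 0.0486) and 1 with array weights (Rps13, -0.55, limma adjusted p = 0.0497). Lowest adjusted p values of members over all alternatives lay between these and 0.312 without wild-type replicate 1. The members' median was -0.17 with no normalization between arrays and -0.14 with cyclic loess, and it ran from -0.12 to -0.069 when each array was left out, against -0.08. The calls over all probes, 467 in the reported fit, were 755 with array weights, 734 with median centring and 798 with no normalization. They ran from 113 to 638 when each array was left out, with 124 without wild-type replicate 1, 113 without wild-type replicate 2 and 143 without wild-type replicate 3. The share of calls that were higher in KO was 27.8% (130 of 467), 1.25% with no normalization (10 higher, 788 lower) and 2.72% with median centring (20 higher, 714 lower). Without wild-type replicates 1, 2 and 3 in turn that share was 0.806%, 1.77% and 11.9% (1, 2 and 17 higher). When a KO array was left out it was 34% to 37.3%. With the replicate block 247 probes were called and 0 members. The labels do not say whether replicate numbers pair the samples, and the deviations cannot decide it. Those of same-numbered arrays had r of 0.50, -0.33 and -0.08 over all probes, and not every array correlated best with its own number. Signs changed for the dim Rps24 probe (-0.070) and the dim Rpl31 probe (-0.022) with no normalization, where the median of all probes was -0.20. For the bright Rpl38 probe they changed with median centring (0.0026) and array weights (0.012), and leaving out each array gave -0.14 to 0.13. Over the named probes and all alternatives, 313 differences kept their sign and side of the threshold, 7 changed sign and 3 gained a call, those above. Keeping a sign did not mean keeping a size: with no normalization Rplp0 was 0.0028, Rps15a 0.0056 and Rpl24 0.0087, against 0.34, 0.35 and 0.31. The cause of these changes was not tested. By any tested probe in place of the brightest, 0 genes were called. Depth here is signal over background, and 3 members were not detected on every array.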
